A study of Mus musculus with 6 samples.

Results

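The Zfp genes are mouse genes named for zinc finger proteins. They were studied here as the symbols made of "Zfp" and a number, without Zfp36, whose product binds mRNA through fingers of another type. The rule took 275 of the 12623 genes in the table and used only their symbols. Of these, 271 reached an RPKM of 1 in at least 1 library and were tested. RPKM is the number of reads per kilobase of transcript scaled to the mapped reads of the library, so levels can be compared between genes. The 4 others were Zfp202, Zfp418, Zfp791 and Zfp941, all of them KRAB genes, with mean RPKM over the 6 libraries of 0.617, 0.6, 0.6 and 0.317. A total of 227 members reached an RPKM of 1 in all 6 libraries.

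The libraries came from endothelial cells (EC), the cells that line blood vessels, sorted by FACS from the lungs of wild-type C57BL/6N mice. The groups were 3 infant libraries, from the second postnatal week when lung vessels still grow, and 3 young adult libraries, from around the third month of life when the vessels are largely quiescent. No group carried a transgene, a deletion or a treatment. The comparison addressed how transcript levels change as EC become quiescent. The sort kept living CD31+ CD34+ cells that lacked markers of leukocytes, red blood cells and lymphatic EC. Nothing in the sources used here gives how many animals stand behind a library, so p-values measure the spread between these libraries.

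Most proteins of this family carry C2H2 fingers, short loops in which a pair of cysteines and a pair of histidines hold a zinc ion, and arrays of such fingers bind DNA in a sequence-specific way. Many also carry a KRAB domain. KRAB domains bind Trim28 (KAP1), which brings the histone methyltransferase Setdb1 and HP1 proteins to the bound site and silences it, chiefly at transposable elements and imprinted regions. Other members work in chromatin complexes, in RNA handling, at ribosomes or on the mitotic spindle.

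In GENCODE release M21, 273 members had a coding transcript that could be translated, with a median of 11 fingers and a maximum of 37. A KRAB domain was found in 166 members and not found in 107. The finger pattern was absent from 7 members. The sequences below show the features by which the members were classed, for the genes on which the results turn. All are coding exon sequence from GENCODE M21 on GRCm38, which shares its coordinates with mm10, and are written 5′ to 3′ on the strand of the gene. The first C2H2 finger of both called genes comes first, with the codons of the zinc-binding cysteines and histidines in capitals. The Zfp711 finger lies at chrX:112632423-112632485 and the Zfp46 finger at chr4:136290220-136290282, both on the plus strand.
Zfp711: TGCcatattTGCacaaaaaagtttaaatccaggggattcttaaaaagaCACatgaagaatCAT
Zfp46: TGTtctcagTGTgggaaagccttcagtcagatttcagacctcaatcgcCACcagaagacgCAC

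The A-box, the part of the KRAB domain that contacts Trim28, is shown for 3 members that were lower in young adult EC. Zfp781 (chr10:81906492-81906587, minus strand) and Zfp873 (chr10:82058376-82058471, plus strand) are neighbours on chromosome 10, and Zfp46 (chr4:136287210-136287290, plus strand) lies on chromosome 4. Capitals mark bases that differ from Zfp781, with the 3′ ends aligned. The A-box of Zfp873 differed at 10 bases and was 89.6% identical. The stretch of Zfp46 is shorter because it begins at the first codon of the translated transcript. Over this part it differed at 28 bases and was 65.4% identical.
Zfp781: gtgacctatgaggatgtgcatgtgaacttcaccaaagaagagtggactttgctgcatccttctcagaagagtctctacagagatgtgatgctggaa
Zfp873: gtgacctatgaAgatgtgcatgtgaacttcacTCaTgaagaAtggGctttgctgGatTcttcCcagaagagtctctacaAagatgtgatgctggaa
Zfp46: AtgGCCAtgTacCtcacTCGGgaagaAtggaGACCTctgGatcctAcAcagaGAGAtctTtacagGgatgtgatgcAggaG

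Several facts of the libraries bear on all values that follow. The sum of 8 endothelial markers was 2425.1 to 3592.0 RPKM in infant and 3897.7 to 4219 RPKM in young adult libraries. Of these markers, Pecam1, Tek and Egfl7 were higher in every young adult library, and Cdh5, Kdr, Cldn5, Erg and Emcn overlapped. Egfl7 was the largest part of the sum in every library. The infant libraries held more RNA of fibroblasts, mural, erythroid and dividing cells. Epithelial and leukocyte sums overlapped between the groups, but Sftpc and Lyz2 made up most of them. Among the leukocyte markers, Ptprc, Cd68, Cd52 and Coro1a were higher in every infant library, and Lyz2 and Laptm5 overlapped. Among the epithelial markers, Epcam, Cdh1, Krt8 and Krt18 were higher in every infant library, and Sftpc and Sftpb overlapped. Summed fibroblast markers were at 1266.3, 317.4 and 874.3 RPKM in infant replicates 1 to 3 against 9.8 to 21.5 RPKM in the young adult libraries, and erythroid markers at 9653.4 to 79856 against 822.2 to 1351 RPKM. Markers of dividing cells summed to 33.3, 5.3 and 32.1 RPKM in the infant and to 0.4 to 0.7 RPKM in the young adult libraries. Mural, epithelial and leukocyte markers summed to 59.7 to 217.8, 3818 to 4797 and 308.7 to 501.5 RPKM in the infant libraries and to 11.1 to 14.1, 1480 to 4977 and 138.6 to 544.8 RPKM in the young adult libraries. The study's methods name female mice, but 4 Y-linked genes summed to 42.2 to 47.0 RPKM in each infant library and were listed at 0 in every young adult library. Xist, the RNA of X inactivation, was at 8.2, 8.7 and 7.6 RPKM in the infant libraries and at 15.6, 12.5 and 13.4 RPKM in the young adult ones. Each infant library thus held both Xist and Y-linked RNA, and the mix of sexes in it was not tested. Age and sex therefore cannot be told apart in these libraries. In bulk RNA, fewer cells of a type and less RNA per cell cannot be told apart either.

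As a family, the Zfp genes were expressed at low levels in lung EC and differed little between the ages. The median member had a mean level of 3.03 RPKM against 6.25 RPKM for all 12458 tested genes. Members summed to 1391.7, 1311.6 and 1309.2 RPKM in the infant libraries and to 1226.0, 1109.4 and 1177.2 RPKM in the young adult libraries, so these sums did not overlap. As a share of the RPKM of all genes the groups did overlap. The 275 members made up 0.507, 0.466 and 0.387% in the infant and 0.459, 0.402 and 0.4% in the young adult libraries. The median level of the 271 tested members was 3.4, 3.1 and 3.1 RPKM in infant EC against 2.9, 2.6 and 2.7 RPKM in young adult EC. Over all genes the medians were 6.3 to 6.6 RPKM in infant and 5.7 to 6.1 RPKM in young adult libraries. The members' levels kept nearly the same order in every library. Across the 271 genes, which are not independent replicates, log2 levels correlated with Pearson's r of 0.96 to 0.98 between infant libraries, 0.97 to 0.98 between young adult libraries and 0.93 to 0.96 between the groups. Infant replicate 2, the infant library with the lowest fibroblast, erythroid and dividing cell sums, had the 3 highest values between the groups.

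**Figure D1:**
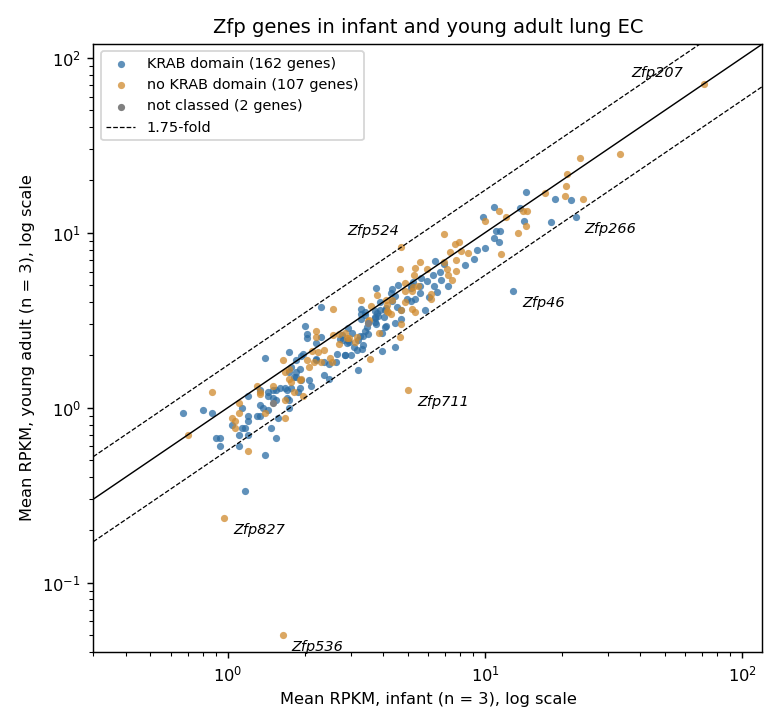
Mean RPKM of the 271 tested Zfp genes in infant (x axis) and young adult (y axis) lung EC, both on log scales, coloured by KRAB class, with a solid line at equality and dashed lines at the fold threshold (0.81 on the log2 scale); Zfp536 is drawn at 0.05 on the y axis, above its mean of 0.0333. Most points lie just under the line of equality, 18 fall below the lower dashed line and 0 lie above the upper one.

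Differences were tested with limma on log2(RPKM + 1), and a gene was called when its p, adjusted over all tested genes by Benjamini-Hochberg, was under 0.05 and its log2 fold change beyond 0.81 in either direction, the fold threshold of the study. Of the 271 members, 2 were called and 0 of these were higher in young adult EC, whereas 11.4% of all tested genes were called, 8.10% as lower and 3.33% as higher. In the range of 3 to under 10 RPKM, which held 108 members, the same 2 were called, and the background was 9.73%. At an unadjusted p under 0.05, 67 members (24.7%) were lower and 10 (3.69%) higher, against 25.4% and 15.0% of all tested genes. The median standard error of the log2 fold change was 0.13 for members and 0.13 for all tested genes. For 241 members (88.9%) the whole 95% confidence interval lay within the fold threshold in either direction, against 72.5% of all tested genes. On the ratio of mean RPKM, without a pseudocount, 18 members (6.64%) were below the young adult to infant ratio that the threshold sets and 0 above it, against 15.7% and 4.78% of all tested genes. Leaving out infant replicate 2 raised the number called from 2 to 6, adding Zfp266, Zfp536, Zfp558 and Zfp781. With a pseudocount of 0.1 in place of 1, under which low values weigh more, 13 members were called lower, beside 11.4% of all genes.

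Zfp711, an X-linked relative of the transcription factor Zfx and a partner of the histone demethylase Phf8, showed the largest fall that passed the test. It was at 6.0, 4.3 and 4.8 RPKM in the infant libraries and at 1.4, 1.0 and 1.4 RPKM in the young adult libraries. Every infant value was above every young adult value. The means were 5.03 ± 0.874 and 1.27 ± 0.231 RPKM (SD, n = 3 each), a ratio of 0.252. Its log2 fold change was -1.41 with a standard error of 0.14 (limma, adjusted p = 0.00138). The gene spans chrX:112600526-112635070, encodes 11 fingers by the pattern and no KRAB domain. As the infant and young adult libraries also differed in Y-linked RNA and in Xist, sex cannot be told apart from age for this X-linked gene. The other 4 members on the X chromosome were Zfp449, Zfp300, Zfp182 and Zfp275, with log2 fold changes of -0.25, -0.21, -0.20 and -0.04 that did not pass the test.

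Zfp46, a KRAB gene with 12 fingers at chr4:136284168-136293942, was the other called member. Its RPKM was 14.6, 12.4 and 11.7 in the infant and 4.5, 4.6 and 4.9 in the young adult libraries. The young adult libraries lay close together and far below the infant ones. The means were 12.9 ± 1.51 and 4.67 ± 0.208 RPKM (SD, n = 3 each), a ratio of 0.362. Its log2 fold change was -1.29 with a standard error of 0.11 (limma, adjusted p = 0.00081). Both genes were called in all 6 fits that left out 1 library and under each other scaling of the libraries. Neither passed limma's treat test, which sets the fold threshold as the null (adjusted p = 0.0807 for Zfp711 and 0.0633 for Zfp46). With a pseudocount of 5 the fold change of Zfp711 was -0.68 and no longer past the threshold.

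**Figure D2:**
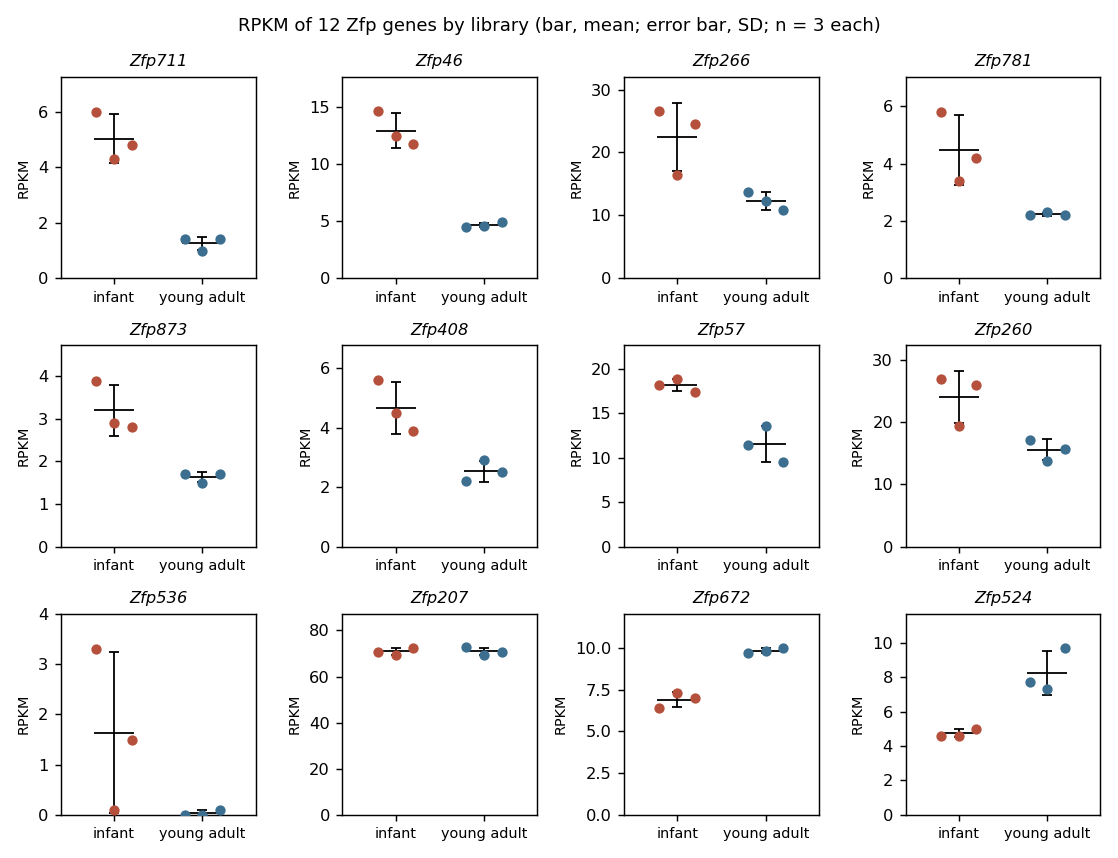
RPKM (y axes, from 0) of 12 Zfp genes in each of the 3 infant and 3 young adult libraries (points), with the mean as a bar and the SD as an error bar. Zfp711 and Zfp46 fall, Zfp207 has values between 69.4 and 72.7 in all 6 libraries, and Zfp536 has its 3 infant values between 0.1 and 3.3.

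The fall of many other members passed the adjusted p but not the fold threshold. Counting by adjusted p alone, 35 members were lower and 3 higher in young adult EC, beside 16.2% and 9.26% of all tested genes. Shares of the members were 12.9% and 1.11%. With 1 library fewer, the counts of lower members were 8, 44 and 9 without infant replicates 1 to 3 and 7, 6 and 9 without young adult replicates 1 to 3. Of the 38 members, 5 passed in all 6 of these fits, namely Zfp711, Zfp46, Zfp362, Zfp672 and Zfp524. After quantile normalization, which gives all libraries the same distribution of values, 12 of the 35 still passed as lower. All 3 higher members passed and 10 more became higher, so that the split was 12 lower to 13 higher. The genes of this paragraph and of the next 3 were chosen after their values were seen, except Zfp711, Zfp46 and Zfp260, and so were Zfp677 and Zfp40 further on.

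Zfp266, a KRAB gene with 9 fingers, lay just short of the threshold of 0.81. It was at 26.6, 16.4 and 24.6 RPKM in infant EC against 13.7, 12.3 and 10.8 RPKM in young adult EC. The groups did not overlap, although infant replicate 2 lay near the young adult values. Its log2 fold change was -0.80 with a standard error of 0.18 (limma, adjusted p = 0.0185). Zfp408, whose human counterpart is linked to an inherited disease of retinal vessels, was at 5.6, 4.5 and 3.9 RPKM in infant EC against 2.2, 2.9 and 2.5 RPKM in young adult EC. Its log2 fold change was -0.68 with a standard error of 0.14 (adjusted p = 0.0149). Zfp362 was at 4.0, 3.4 and 3.3 RPKM in infant EC against 1.9, 1.8 and 2.0 RPKM in young adult EC. In both genes every young adult value was below every infant value.

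Zfp781 and Zfp873, the neighbouring KRAB genes whose A-boxes are shown above, both fell by adjusted p. The finger pattern was not found in Zfp781. Zfp873 was at 3.9, 2.9 and 2.8 RPKM in infant EC against 1.7, 1.5 and 1.7 RPKM in young adult EC, with a log2 fold change of -0.66 and a standard error of 0.13 (limma, adjusted p = 0.0127). Zfp781 was at 5.8, 3.4 and 4.2 RPKM in infant EC against 2.2, 2.3 and 2.2 RPKM in young adult EC, with a log2 fold change of -0.73. Its value is uncertain, since 92.4% of its transcript in windows of 100 bases is identical to transcripts of another gene. The nearby KRAB genes Zfp433 and Zfp938 had log2 fold changes of -0.33 and -0.29 that did not pass the test. The value of Zfp433 is uncertain too, with 75.5% of its windows shared. Zfp260, a partner of the cardiac factor Gata4 and among the most abundant members, was at 26.9, 19.3 and 26.0 RPKM in infant EC against 17.2, 13.8 and 15.7 RPKM in young adult EC. Its groups did not overlap, and its log2 fold change was -0.59 (adjusted p = 0.0248).

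Rises were few and small. Zfp524 was at 4.6, 4.6 and 5.0 RPKM in infant EC against 7.7, 7.3 and 9.7 RPKM in young adult EC. Its log2 fold change was 0.68 with a standard error of 0.12 (limma, adjusted p = 0.00842), but 42.9% of its transcript windows are shared with other genes' transcripts, so its value is uncertain. Zfp672, which shares no such window, was at 6.4, 7.3 and 7.0 RPKM in infant EC against 9.7, 9.8 and 10.0 RPKM in young adult EC. The young adult values were nearly identical and all above the infant ones, and the log2 fold change was 0.46 (adjusted p = 0.0122). Zfp946, a KRAB gene, was at 1.9, 2.2 and 1.9 RPKM in infant EC against 3.3, 2.7 and 2.8 RPKM in young adult EC, with a log2 fold change of 0.39 (adjusted p = 0.0426).

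Most members shifted slightly downward. Of the 271, 215 had a log2 fold change below 0, with a median of -0.18, against 7295 of 12458 and a median of -0.07 over all tested genes. The median ratio of mean RPKM was 0.840 for members and 0.941 for all. With no filter on low values, 219 of 275 were below 0 and the median was -0.17. Among all tested genes, too, those at low levels had the lower medians. Below 1 RPKM the medians were -0.27 for members and -0.45 for all genes, and at 1 to under 3 RPKM -0.20 and -0.18. At 3 to under 10 RPKM they were -0.15 and -0.08, and at 10 to under 30 RPKM -0.13 and 0.00. The infant and young adult values did not overlap in 90 members that were lower (all genes, 27.1%) and 15 that were higher (all genes, 16.4%). These are 33.2% and 5.54% of the members. The downward shift depended on how the libraries were scaled. Quantile normalization moved the median of all genes by more than 0.1, from -0.07 to 0.04, and there the members' median was also 0.04, with 113 of 271 below 0. Rescaling without the globin genes moved the medians to -0.25 for members and -0.16 for all genes.

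**Figure D3:**
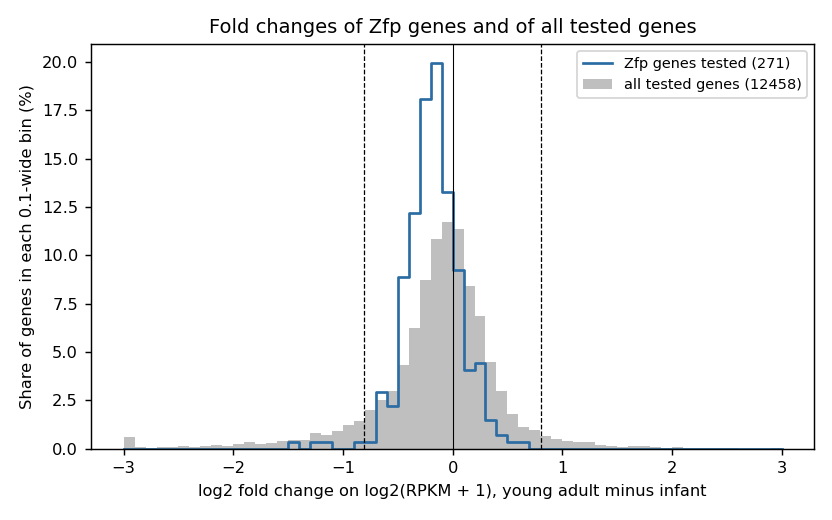
Share of genes (y axis, %) in bins of 0.1 of the log2 fold change (x axis, young adult minus infant, on log2(RPKM + 1)) for the 271 tested Zfp genes (blue line) and all 12458 tested genes (grey bars, values beyond the axis in the end bins); dashed lines mark the fold threshold. The Zfp genes form a narrow peak left of 0 with a median of -0.18 and hardly any values outside the dashed lines.

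**Figure D4:**
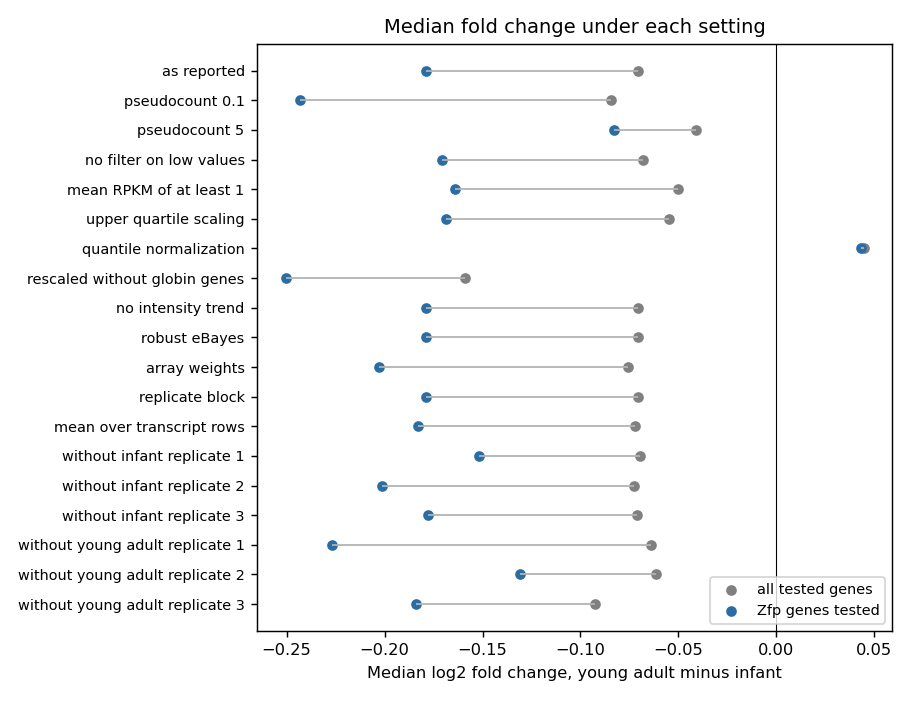
Median log2 fold change (x axis, young adult minus infant) of the tested Zfp genes (blue) and of all tested genes (grey) as reported and under other settings (y axis). The Zfp median lies below 0 and below that of all genes in each setting shown but quantile normalization, where both are 0.04. All tested genes are not matched to the Zfp genes in level.

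Both classes of members held mostly small negative values. Of 162 tested KRAB members, 134 were below 0, with a median log2 fold change of -0.21, 22 lower and 1 higher by adjusted p, and 1 called gene, Zfp46. Of the 107 members without a KRAB domain, 79 were below 0, with a median of -0.12, 13 lower and 2 higher, and 1 called gene, Zfp711. Members lower by adjusted p were 13.6% of the KRAB class and 12.1% of the other. Over all tested genes, 58.6% were below 0, 16.2% lower and 9.26% higher by adjusted p, and 11.4% called. The difference between the classes was not tested. After quantile normalization the medians were 0.03 and 0.07, and the counts by adjusted p were 5 lower and 6 higher for KRAB members and 7 lower and 7 higher for the others. KRAB members had the lower levels, with a median of 2.72 RPKM against 3.72 RPKM, and more fingers, with a median of 12 against 8. Grouped by finger number, the median log2 fold change was -0.14 for 0 to 3 fingers, -0.14 for 4 to 8, -0.20 for 9 to 12 and -0.20 for 13 or more.

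Genes of this family sit in clusters that arose by tandem duplication. With neighbours no more than 500 kb apart, 10 clusters of at least 5 members held 100 of the 275 members. In each of the 10, the median log2 fold change lay between -0.28 and -0.07 and no member was called (limma). At an unadjusted p under 0.05, 20 of the 100 were lower and 5 higher, beside 25.4% and 15.0% of all tested genes. After quantile normalization 8 of the medians lay above 0, and 5 members were lower and 13 higher at that p. The largest cluster, at chr17:21008941-23599755, held 20 KRAB members with a median of -0.15. Of these, 5 were lower and Zfp946 higher by adjusted p, beside 16.2% and 9.26% of all tested genes. Among its lower members were Zfp677, at a log2 fold change of -0.64, and Zfp40, at -0.58. The median of this cluster was 0.03 after quantile normalization, with 0 members lower and 2 higher by adjusted p. A cluster of 13 KRAB members at chr13:67038594-67827000 had a median of -0.17 and no member past the adjusted p. In the clusters at chr17:32765496-33631716 and chr9:20345136-20605404, 10 of 10 and 5 of 5 members were below 0, beside 58.6% of all tested genes. The share below 0 was 79.3% among the tested members and 82.7% among the tested KRAB members. Both clusters were picked after their values were seen. Their medians were -0.24 and -0.28, and the second of these clusters contains Zfp266. After quantile normalization 7 of 10 and 5 of 5 were below 0.

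**Figure D5:**
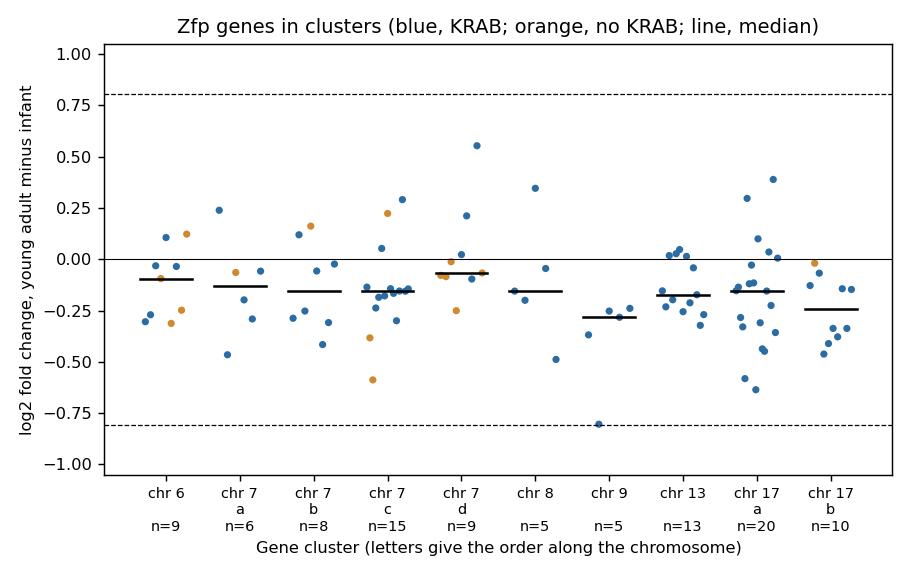
Log2 fold change (y axis, young adult minus infant) of the Zfp genes in each of the 10 clusters (x axis, chromosome and number of members), as points in blue for KRAB and orange for other members, with the cluster median as a line and dashed lines at the fold threshold. The cluster medians lie between -0.28 and -0.07, and Zfp266 on chromosome 9 is the point nearest to a dashed line.

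Among members known to silence imprinted genes and retroelements, 6 of 7 listed were in the table. 0 were called, 1 was lower by adjusted p and 2 by unadjusted p (limma), the latter beside 25.4% of all tested genes. The first was Zfp57, which keeps DNA methylation at imprinted regions through Trim28. It was at 18.2, 18.8 and 17.4 RPKM in infant EC against 11.4, 13.6 and 9.5 RPKM in young adult EC, so the groups did not overlap. Its means were 18.1 ± 0.702 and 11.5 ± 2.05 RPKM (SD, n = 3 each), and the log2 fold change was -0.63 with a standard error of 0.13 (limma, adjusted p = 0.0141). Zfp445, which acts at imprinted regions too, ranged from 13.3 to 15.8 RPKM in infant EC and from 10.6 to 12.4 RPKM in young adult EC, with a log2 fold change of -0.26 (adjusted p = 0.108). Zfp568, a repressor of a placental Igf2 promoter, had -0.17, and Zfp708, which binds transposable elements, -0.26. Zfp809 and Zfp932, which silence proviruses and endogenous retroviruses, had log2 fold changes of -0.05 (95% confidence interval -0.27 to 0.17) and -0.01 (-0.28 to 0.26). Reads of Zfp708 and Zfp932 could also stem from other genes, with 94.3% and 18.5% of their windows shared, so both values are uncertain. The median of the list was -0.21, and 0.04 after quantile normalization.

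Of the 13 listed proteins through which KRAB domains act, 1 was called (7.69%), beside 11.4% of all tested genes. Trim28, the corepressor itself, was at 9.9, 10.4 and 11.5 RPKM in infant EC against 9.5, 9.3 and 12 RPKM in young adult EC. The ranges overlapped, and its log2 fold change was -0.05 with a 95% confidence interval of -0.33 to 0.23 (limma, adjusted p = 0.795). For Setdb1 the log2 fold change was -0.24 with an adjusted p of 0.0777, and for the DNA methyltransferase Dnmt1 it was 0.29 with an adjusted p of 0.051. The called gene was Uhrf1, which guides Dnmt1 to newly replicated DNA. It was at 2.4, 1.1 and 3.1 RPKM in infant EC against 0.4, 0.3 and 0.5 RPKM in young adult EC, with a log2 fold change of -1.14 (adjusted p = 0.0155). Its lowest infant value was in replicate 2, which also had the lowest sum of dividing cell markers, and the part of dividing cells in this fall was not tested. The helicase Chd4 of the NuRD complex was lower by adjusted p alone (-0.40, adjusted p = 0.0244).

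Of 12 members that work in chromatin complexes, 1 was called (Zfp711), 3 were lower by adjusted p and 11 were below 0. Over all tested genes, 11.4% were called, 16.2% were lower by adjusted p and 58.6% were below 0, and 79.3% of the members were below 0. The list's median was -0.24, and -0.03 after quantile normalization. Zfp827, which recruits NuRD, was at 1.2, 0.6 and 1.1 RPKM in infant EC against 0.2, 0.2 and 0.3 RPKM in young adult EC. Its groups did not overlap and the ratio of means was 0.241, yet the log2 fold change was -0.66 with a standard error of 0.17 (limma, adjusted p = 0.028), since the pseudocount compresses such low values. Zfp532, Zfp592 and Zfp687, which form a module with the chromatin reader Zmynd8, differed in sign, with log2 fold changes of -0.46 (adjusted p = 0.035), 0.16 (0.359) and -0.18 (0.247). In Zfp644, a partner of the G9a histone methyltransferase, the log2 fold change was -0.31 (adjusted p = 0.0924). In the SUMO ligase Zfp451 it was -0.30 (0.0569) and in the CtBP partner Zfp217 -0.34 (0.129). Zfp148, Zfp281, Zfp335 and Zfp609 lay between -0.17 and -0.06.

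Of 8 listed factors of development and of mesenchymal cells, 6 were in the table, 0 were called and 0 passed the adjusted p (limma). At an unadjusted p under 0.05, 3 were lower, beside 25.4% of all tested genes, and 0 after quantile normalization. All 6 were below 0, beside 58.6% of all tested genes and 79.3% of the tested members, and 3 of 6 after quantile normalization. Zfp536, a regulator of neuronal differentiation, varied most among the infant libraries, at 3.3, 0.1 and 1.5 RPKM, and was at 0.0, 0.0 and 0.1 RPKM in the young adult libraries. The groups overlapped at 0.1 RPKM. Its log2 fold change was -1.14 with a standard error of 0.43 (limma, adjusted p = 0.0904), and without infant replicate 2 it was -1.67 (adjusted p = 0.00099) and called. The fibroblast sums given above had the same order over the infant libraries, and the mural sums were also lowest in replicate 2, at 213.1, 59.7 and 217.8 RPKM. The fibroblast markers Dcn and Lum went the other way and were highest in replicate 2, at 7.6, 19.9 and 8.0 and at 4.1, 14.4 and 4.7 RPKM. The part of fibroblasts and mural cells in the value of Zfp536 was not tested. In Zfp516, known from brown fat, the log2 fold change was -0.44 (adjusted p = 0.0581). In Zfp703 it was -0.48 (0.118) and in its relative Zfp503 -0.17 (0.38). Zfp521, a factor of immature progenitors, was at 6.3, 4.2 and 5.9 RPKM in infant EC against 5.7, 4.4 and 4.8 RPKM in young adult EC, and the ranges overlapped. Zfp467 had a log2 fold change of -0.09.

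The listed members with roles in RNA handling, at ribosomes and on the spindle included the most abundant member. Zfp207 (BuGZ), which promotes spindle assembly, was at 70.8, 69.4 and 72.5 RPKM in infant EC against 72.7, 69.5 and 70.6 RPKM in young adult EC. The ranges coincided almost fully, and the log2 fold change was 0.00 with a 95% confidence interval of -0.21 to 0.21 (limma, adjusted p = 0.997). Of 7 listed members in the table, 0 were called, 0 passed the adjusted p and 0 had an unadjusted p under 0.05, with a median of -0.04 (limma). Zfp598, the ubiquitin ligase that marks collided ribosomes, was at 3.4, 3.2 and 3.3 RPKM in infant EC against 4.2, 3.5 and 4.6 RPKM in young adult EC. Every young adult value was higher, but the log2 fold change of 0.24 did not pass the test (adjusted p = 0.153). Zfp622, Zfp830, Zfp326, Zfp346 and Zfp106, which act on ribosomes, splicing and RNA, had log2 fold changes of -0.04, -0.02, -0.16, -0.23 and -0.25.

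After Zfp207, the highest mean levels over all 6 libraries were those of Zfp706, Zfp637, Zfp263, Zfp260, Zfp410, Zfp715 and Zfp422, at 30.9, 25, 21.3, 19.8, 19.6, 18.5 and 18.3 RPKM. Zfp266 had a lower mean over the 6 libraries, 17.4 RPKM, but in infant EC its 22.5 RPKM lay above the means of Zfp263, Zfp410, Zfp715 and Zfp422 (20.4 to 21.6 RPKM). The spread between libraries does not separate the last 4 of these from each other. Zfp706 was at 31.4, 37.0 and 32.4 RPKM in infant EC against 26.5, 27.4 and 30.8 RPKM in young adult EC, without overlap, and its log2 fold change of -0.24 did not pass the test (limma, adjusted p = 0.13). Zfp637, Zfp263 and Zfp410, an activator of Chd4, had log2 fold changes of 0.17, 0.05 and -0.15 that did not pass either. Zfp715, a KRAB gene, and Zfp422 were lower by adjusted p, with log2 fold changes of -0.46 (adjusted p = 0.0442) and -0.32 (0.0382). Both had no overlap between the groups.

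Other zinc finger families are set beside the Zfp genes as a description. Of 45 Zbtb, Zscan and Zkscan genes, which pair fingers with a BTB or SCAN domain, 0 were called, 7 were lower and 3 higher by adjusted p (10 and 7 by unadjusted p, beside 25.4% and 15.0% of all tested genes), and the median log2 fold change was -0.13. After quantile normalization the median was 0.06, with 2 lower and 5 higher by adjusted p. Of 12 Klf genes, which include regulators of vessel quiescence, 0 were called, 3 were lower and 2 higher by adjusted p (3 and 2 by unadjusted p), and the median was 0.26. After quantile normalization the median was 0.28, with 1 lower and 3 higher by adjusted p. The Klf genes had a median level of 31.7 RPKM and the confidence interval within the fold threshold in 41.7%, against 3.03 RPKM and 88.9% in the Zfp genes. No test of a difference between the families was made.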

How the data were processed

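The authors sorted EC, extracted RNA with a PicoPure kit, amplified it with the SMARTer Ultra Low kit and sequenced paired ends on a HiSeq2000. The authors aligned reads to mm10 with STAR and tested genes with DESeq2, per the submitters' processing notes. The STAR version and the RPKM program are not given in the sources used here. The authors deposited RPKM per RefSeq transcript, rounded to 0.1, for 3 infant and 3 young adult libraries. The study gives an average transcriptome coverage but no read counts per library, so no counting error was given. The strand of counting is not stated, so antisense transcripts cannot be separated.

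From the 17241 rows, the row with the highest mean was kept per symbol (12623 genes). For 24 rows, symbols were restored from the accession. Genes that reached an RPKM of 1 in any library entered limma 3.58.1 (R 4.3.3) on log2(RPKM + 1) with trended eBayes, age as only term and Benjamini-Hochberg adjustment over all tested genes, in place of a count test. Fold changes on this scale are understated for low genes. The script was tested on simulated data.

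Gene positions are from RefSeq on GRCm38.p6 (275 of 275 members matched). RefSeq lists Zfp862 as a pseudogene, and it and Zfp939 were not classed. C2H2 patterns and a KRAB A-box profile (pyhmmer 0.12.3, seeded with 75 A-boxes of the members, E-value up to 0.001) were sought in translated GENCODE M21 transcripts. A member's transcript was cut into windows of 100 bases and looked for in other genes' transcripts. 21 members shared over 10% of their windows, and their values are uncertain.

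The members and lists were chosen with earlier results of these data known. Named were called members without overlap whose mean reached 1 RPKM, the 8 most abundant members and members of the role lists. Listed members not in the table used were Zfp819, Zfp423, Zfp462 and Zfp638. Alternatives were other pseudocounts, filters, scalings, limma settings and call rules, a replicate block, the mean over transcript rows and leaving out each library.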

Additional observations from a re-analysis of the deposited data

How the results depend on the processing

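The number of members called lower, 2 as reported, was 13 with a pseudocount of 0.1, 1 with a pseudocount of 5, 4 after rescaling without the globin genes, 4 with array weights, 35 with no fold threshold and 2 to 6 on leaving out 1 library, with 6 without infant replicate 2. It was 0 with limma treat, which tests against the fold threshold itself, where 2 members were lower at an unadjusted p under 0.05. The other settings gave 2. The number called higher was 0 in each setting, except 3 with no fold threshold. The median log2 fold change of -0.18 was -0.083 with a pseudocount of 5, -0.25 after rescaling without the globin genes and 0.043, thus reversed, after quantile normalization, and ranged from -0.23 to -0.13 on leaving out 1 library. The cause of these changes was not tested. Fewer samples enter a fit that leaves out a library.

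Same-numbered infant and young adult libraries did not deviate together (Pearson's r across genes of 0.03, -0.11 and -0.02), so no sign of pairing by number was seen. With 3 libraries per group, these correlations cannot show that pairing was absent. With the replicate number as a block, 2 members were called, as without the block, 19 were lower and 2 higher by adjusted p, and the median was -0.18. Of 1374 fold changes computed under alternatives for 69 named members, 29 changed sign, 14 of them under quantile normalization, and 0 of these belonged to a called member. A call was gained in 55, 36 of them with no fold threshold, and lost in 3. Read counts per library are not given, and levels under about 1 RPKM are limited by the rounding to 0.1.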

Other observations

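Where a member had several RefSeq transcript rows, the rows mostly moved alike. In 59 of the 63 such members, the difference of mean log2 values between the ages varied by no more than 0.25 among rows. The exceptions, chosen after their values were seen, were Zfp606, Zfp655, Zfp467 and Zfp672, and their rows were not tested. In Zfp606, a KRAB gene, the more abundant row was at 3.4, 2.4 and 2.5 RPKM in infant EC against 2.5, 2.9 and 2.4 RPKM in young adult EC, which overlap. Its other row was at 3.5, 2.8 and 2.6 RPKM in infant EC against 1.7, 1.8 and 1.6 RPKM in young adult EC, without overlap. In Zfp467 the most abundant row gave a difference of -0.09 and the 3 others -0.50, -0.48 and -0.44. In Zfp655 the rows differed in sign, at -0.33 and 0.10. In Zfp672 the 6 coding rows rose by 0.44 to 0.47 and both non-coding rows by 0.20 and 0.11. Reads that lie in exons shared by several rows may count in each of them.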
